A study of Zea mays with 24 samples.

Results

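Cold nights and control nights were compared in 8 of the 24 leaf samples of the series, 4 from maize grown with nights of 4 °C (low T) and 4 from maize grown with nights of 20 °C (control T). The members are the transcript probes of the microarray, that is every spot that is not a control. There were 41780 of them, and 30792 of these entered the test, those whose signal exceeded background clearly on every array of low T, of control T or of both. Both groups were the inbred line B73, had days of 28 °C with 14 h of light and nights of 10 h, and received the same full nutrient solution with 15 mM KNO3 and 0.5 mM KH2PO4. The cold nights began at day 7 after germination, and the lamina of leaf 5 was sampled at day 20 in both groups. The methods describe the sample as the middle of the lamina, cut in the light period before noon, so the low T leaves were warm when harvested and had been cold the night before. Of 2 climate chambers 1 was switched to cold nights, and chamber and treatment therefore cannot be told apart. The remaining 16 samples belong to the low nitrate (low N, 0.15 mM KNO3) and low phosphate (low P, 0.1 mM KH2PO4) experiments with their own full nutrient controls, and enter here only where the change under cold nights is set against theirs. They are B73 too, with nights of 20 °C, but leaf 6 at day 30. By the methods they grew in another growth chamber with other light. The low T experiment ran in autumn, low N in spring and low P in summer of different years. Leaf, age, chamber, light and season therefore cannot be told apart from the treatment wherever low T is set against low N or low P.

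Maize is a C4 grass of warm climates, and cool nights slow its growth while photosynthesis goes on by day. Sugars made by day are stored as starch or exported as sucrose, and sugars, raffinose family oligosaccharides and proline are known to accumulate in many plants in the cold. Phosphate status is read in plants by SPX domain proteins, which hold back the PHR1 transcription factor when phosphate is ample, while the noncoding RNA IPS1, PHT1 transporters and purple acid phosphatases are classical transcripts of phosphate shortage.

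Values are the log2 signal of a probe relative to the 75th percentile of its array, called here normalized log2 signal. A log2 change is the mean of low T minus the mean of control T, given with its standard error (SE). Calls required a more than 2-fold difference and an adjusted p under 0.05 (limma, Benjamini-Hochberg over the 30792 probes), and all adjusted p-values below are from that fit unless said otherwise. Of the tested probes 7.48% were called higher and 7.02% lower under low T, and the median change of all of them was -0.05. On the low T arrays 31188 to 32410 probes were clearly above background, and on the control T arrays 29962 to 35451. The 75th percentile itself was brighter in low T, with 765.0 ± 46.7 units against 652.7 ± 29.5 in control T (SD, n = 4 each), with no common range (two-sided exact permutation p = 0.0286, which is the minimum for 4 against 4). Replicates 1 and 2 of both groups lay on 1 slide and replicates 3 and 4 on another. Markers of mesophyll and bundle sheath, such as C4 phosphoenolpyruvate carboxylase and NADP-malic enzyme, were well above background on all 8 arrays, and 0 of these 8 markers passed the fold limit. By the p limit alone NADP-malic enzyme GRMZM2G085019 was lower by a log2 change of -0.47 (adjusted p = 0.0297) and a carbonic anhydrase, GRMZM2G145101, higher by 0.71 (adjusted p = 0.0265).

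Transcripts of the phosphate response were lower in cold night leaves. Among 10 SPX and PHO1 family transcripts 0 were called higher and 8 lower, among 6 PHT1 transporters 0 and 6, and among 12 purple acid phosphatases 0 and 6, against 7.48% higher and 7.02% lower among all tested probes. The median log2 changes were -2.69, -2.14 and -1.53 in that order. Both groups received the same amount of phosphate in the nutrient solution. The paper nevertheless reported a significantly higher phosphorus concentration in the cold night leaves than in their controls. Whether leaf phosphorus bears on these transcripts was not tested. In whole leaf samples less RNA per cell and fewer cells of a type cannot be told apart.

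GRMZM2G065989, described as SPX3-like, had normalized log2 signals of 2.44, -1.50, -0.31 and -1.07 in low T, against 5.35, 5.49, 4.85 and 4.39 in control T. Low T replicate 1 stood above the other low T arrays but below every control T array. The log2 change was -5.13 (SE 0.79, adjusted p = 0.00228). A second SPX3-like transcript, GRMZM2G370780, behaved alike, with 2.04, -0.97, -0.32 and -0.79 in low T against 5.21, 5.29, 4.16 and 3.85 in control T and a change of -4.64 (SE 0.68, adjusted p = 0.00181). SPX proteins of this small type bind PHR1 in Arabidopsis and rice, and their own transcripts are induced when phosphate is scarce. SPX1-like GRMZM2G171423 had 2.78, 0.21, 0.44 and 0.25 in low T, against 5.52, 5.66, 4.87 and 4.56 in control T. Its change was -4.23 (SE 0.58, adjusted p = 0.00143), and again replicate 1 was the highest of low T without reaching control T.

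SPX4-like GRMZM2G122108 had 0.87, -0.48, -0.51 and -0.29 in low T, against 2.58, 2.78, 2.72 and 2.63 in control T, a change of -2.78 (SE 0.30, adjusted p = 0.000561). SPX2-like GRMZM2G035579 was well above background on 1 of 4 low T arrays and on all 4 control T arrays, with a change of -4.20 (SE 0.68, adjusted p = 0.00293). With the normexp background model its change was -1.71 and not called (adjusted p = 0.0522). PHO1 proteins carry an SPX domain too and export phosphate from cells to the xylem in Arabidopsis. The PHO1 transcripts GRMZM2G335989 and GRMZM2G466545 were lower by log2 changes of -2.61 and -2.04. Of 3 transcripts for membrane proteins with an SPX and a transporter domain, GRMZM2G166976 changed by -1.96 and was called, while GRMZM2G050329 changed by -0.19 and GRMZM2G086430 by 1.34 and were not called, and with scaling on spike-in probes GRMZM2G086430 was called higher at 1.79.

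The PHT1 transporters carry phosphate across the plasma membrane. PHT1;4-like GRMZM2G326707 had -0.08, -1.27, -0.67 and -0.89 in low T, against 2.76, 2.92, 2.04 and 1.48 in control T. The groups did not overlap, and the change was -3.03 (SE 0.37, adjusted p = 0.000898). The other PHT1;4-like transcript GRMZM2G154090 changed by -2.39, PHT1;3-like GRMZM2G139639 by -2.17 and PHT1;7-like GRMZM2G112377 by -2.11, the last of these not called with normexp background correction. The groups overlapped for the second PHT1;7-like transcript, GRMZM2G075870, with 0.80, -0.23, -0.41 and -0.85 in low T against 2.67, 2.64, 0.92 and 0.52 in control T. Its change of -1.86 (SE 0.57, adjusted p = 0.0381) was lost in 5 of the 8 fits that left out a single array. PHT1;5-like GRMZM2G045473 showed the smallest change of the family, -1.02 (SE 0.18, adjusted p = 0.00373), and fell under the fold limit with spike-in scaling. All 6 changes were below 0 under every scaling tried, and 3 to 6 of them were called.

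**Figure D1:**
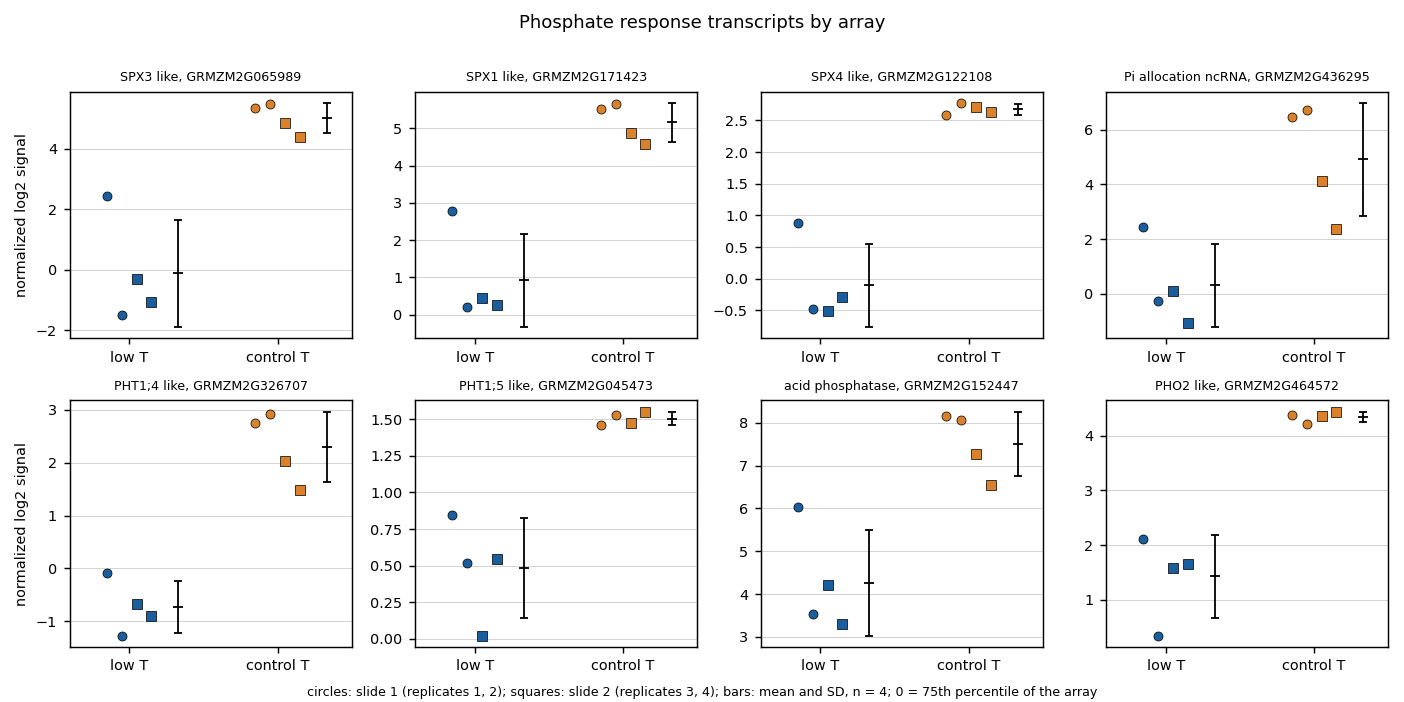
Normalized log2 signal (vertical axes, 0 is the 75th percentile of the array) of 8 phosphate response transcripts on each low T (blue) and control T (orange) array, circles for slide 1, squares for slide 2, bars for mean and SD. Low T lies below control T in all 8 panels except for an overlap in the noncoding RNA, low T replicate 1 is the highest low T array in each, and in the SPX1-like, SPX3-like, PHT1;4-like, phosphatase and noncoding RNA panels control T is higher on slide 1 than on slide 2.

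Purple acid phosphatases release phosphate from organic esters. GRMZM2G152447 had 6.03, 3.53, 4.22 and 3.30 in low T, against 8.16, 8.06, 7.28 and 6.56 in control T. Low T stayed below control T on every array, and the change was -3.24 (SE 0.62, adjusted p = 0.00584). The remaining calls of this list were GRMZM2G315848 (-2.85), GRMZM2G093101 (-2.69), GRMZM2G106600 (-1.79), GRMZM2G134054 (-1.65) and GRMZM2G138756 (-1.40), and the 6 members not called changed by -1.93 to -0.15. The list gave different values on the slides, with a median of -2.11 and 9 calls within slide 1 and of -0.69 and 4 calls within slide 2.

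Of 8 regulators of the phosphate response 0 were called higher and 2 lower, against 7.48% and 7.02% of all tested probes. The noncoding RNA GRMZM2G436295, described as involved in phosphate allocation, had 2.46, -0.28, 0.09 and -1.05 in low T, against 6.47, 6.72, 4.12 and 2.37 in control T. The highest low T array exceeded the lowest control T array, and the change was -4.62 (SE 1.09, adjusted p = 0.014). PHO2 is a ubiquitin conjugase that removes phosphate transporters and is itself held down by a microRNA in phosphate shortage in Arabidopsis. The PHO2-like transcript GRMZM2G464572 had 2.11, 0.35, 1.59 and 1.66 in low T, against 4.37, 4.21, 4.36 and 4.44 in control T, a change of -2.92 (SE 0.34, adjusted p = 0.000761) in the same direction as the transporters. PHR1-like GRMZM2G006477 had 0.35, 0.45, 0.68 and 0.79 in low T against 0.72, 0.74, 0.82 and 0.99 in control T and was not called (log2 change -0.25, adjusted p = 0.205). SQD2-like GRMZM2G100652, an enzyme of the sulfolipids that replace phospholipids in phosphate shortage, changed by -1.84 (SE 0.32, adjusted p = 0.00379).

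Transporters of organelles did not share one direction. Of the 11 other phosphate transporters 1 was called higher and 3 lower, against 7.48% and 7.02% of all tested probes. PHT3;1-like GRMZM2G009045, a carrier of the mitochondrial membrane, had 0.21, -0.20, 0.30 and 0.09 in low T against -1.91, -1.88, -1.46 and -1.59 in control T, a change of 1.81 (SE 0.16, adjusted p = 0.000298). A paralogue with the same description, GRMZM2G118208, changed by -1.54 (SE 0.19, adjusted p = 0.000887), and PHT4;5-like GRMZM2G146240 by -1.73 (SE 0.16, adjusted p = 0.000283). The spread among replicates was narrow in these transcripts, and the groups did not overlap in any of the 3.

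The same transcripts were set against the nutrient experiments in 1 fit over all 24 arrays. A difference between changes was called at over 1 on the log2 scale with an adjusted p under 0.05, which held for 6.22% of 31507 probes as more negative and 6.49% as more positive under low T than under low N, and for 14.7% and 9.67% against low P. All 6 PHT1 transporters differed from their change under low P, with a median difference of -3.79. Their median change was -2.14 under low T and 1.47 under low P. All low P arrays lay on 1 slide and all control P arrays on another, so slide and low phosphate cannot be told apart there. The low N and control N arrays shared a slide only in part, so slide and low nitrate cannot be fully told apart either. For 8 of 10 SPX and PHO1 transcripts and 11 of 12 purple acid phosphatases the change under low T was likewise more negative than under low P, and 1 SPX transcript was more positive. Against low N, 0 of 6 PHT1 transporters, 3 of 10 SPX and PHO1 transcripts and 1 of 12 phosphatases were more negative under low T, 1 phosphatase was more positive, and the median changes under low N were -1.39, -1.91 and -1.18. The size of the low N and low T changes differed in few of these transcripts by this test, which does not show that they were equal.

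**Figure D2:**
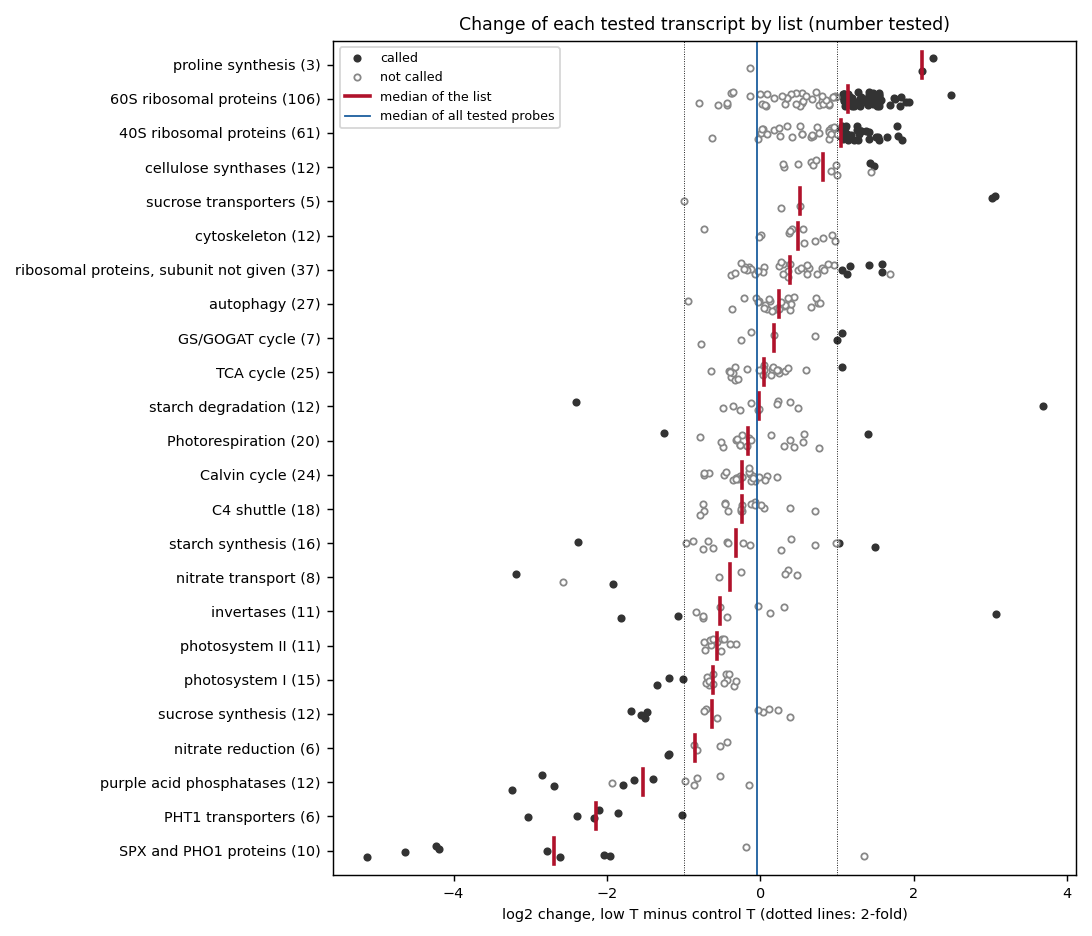
Log2 change of low T against control T (horizontal axis) for every tested member of 24 transcript lists, ordered by median, with the number tested in brackets, filled points for called transcripts, red bars for list medians and a blue line for the median of all tested probes. The phosphate lists at the bottom have medians of -2.69 to -1.53, and the 40S and 60S ribosomal lists near the top have medians of 1.05 and 1.14. Medians below 0 turned positive for the C4 shuttle, Calvin cycle, photorespiration, starch synthesis, starch degradation and nitrate transport with spike-in scaling, and for some of these with another scaling.

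By the calls, sugar metabolism changed in single steps rather than as whole lists. Sucrose is made in the leaf by sucrose phosphate synthase from UDP-glucose and fructose 6-phosphate. Among 12 transcripts of sucrose synthesis 0 were called higher and 4 lower, against 7.48% and 7.02% of all tested probes. Their median change was -0.64. The sucrose phosphate synthase B transcript GRMZM2G013166 had 5.64, 5.36, 5.34 and 5.36 in low T, against 7.03, 6.93, 6.93 and 6.81 in control T. Its change of -1.50 was large against a narrow spread (SE 0.12, adjusted p = 0.000202). GRMZM2G140107 with the same description changed by -1.56 (SE 0.14, adjusted p = 0.000261), sucrose phosphate synthase GRMZM2G008507 by -1.48 (SE 0.27, adjusted p = 0.00435) and a UDP-glucose pyrophosphorylase, AC197705.4_FG011, by -1.69 (SE 0.34, adjusted p = 0.0071). The 8 remaining members changed by -0.73 to 0.38 and were not called.

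Invertases split sucrose into glucose and fructose in the vacuole, the cell wall or the cytosol. The vacuolar invertase GRMZM2G089836 (ivr2) had 6.10, 5.75, 6.45 and 6.96 in low T, against 2.25, 2.60, 4.21 and 3.91 in control T. The groups were far apart, and the change was 3.07 (SE 0.47, adjusted p = 0.0023). The second vacuolar invertase, GRMZM2G394450, had 1.17, 0.84, 0.99 and 1.08 in low T against 2.02, 2.10, 1.95 and 1.37 in control T, a change of -0.84 that passed the p limit but not the fold limit (SE 0.18, adjusted p = 0.0101). Cell wall invertase GRMZM2G174249 changed by -1.82 (SE 0.13, adjusted p = 0.000152) and neutral invertase GRMZM2G136139 by -1.07 (SE 0.30, adjusted p = 0.0274). Of 11 invertases 1 was thus called higher and 2 lower, against 7.48% and 7.02% of all tested probes. The change of ivr2 under low T exceeded that under low P by 7.05 (adjusted p = 2.37e-06), since it was -3.98 under low P.

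Among 5 sucrose transporters 2 were called higher and 0 lower, against 7.48% and 7.02% of all tested probes. GRMZM2G081589 had -0.52, -0.36, -0.49 and 0.01 in low T, against -2.90, -3.01, -3.65 and -4.02 in control T, a change of 3.06 (SE 0.27, adjusted p = 0.000259). GRMZM2G106741 changed by 3.02 (SE 0.32, adjusted p = 0.000514), and this call was lost with normexp background correction, where the change was 1.36. Both had signals under the 75th percentile of the array on nearly all arrays, and GRMZM2G081589 was well above background on all 8. GRMZM2G034302 (sut1), the transporter that loads sucrose into the phloem in maize, had 3.35, 3.28, 2.53 and 2.88 in low T against 4.30, 4.23, 3.82 and 3.68 in control T. The groups did not overlap, and its change of -0.996 lay at the fold limit and was not called (SE 0.23, adjusted p = 0.0124).

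Starch transcripts were called about as often as all tested probes, of which 7.48% were higher and 7.02% lower. Of 12 transcripts of starch degradation 1 was called higher and 1 lower, and of 16 of starch synthesis 2 and 1. By the p limit alone 4 of the 16 were higher and 8 lower, against 15.8% and 16.1% of all tested probes. For the 12 of starch degradation these counts were 2 and 1. A chloroplast beta-amylase, GRMZM2G025833, which releases maltose from starch, had 2.36, 2.09, 3.64 and 3.70 in low T, against -0.80, -0.81, -0.85 and -0.45 in control T. The change was 3.68 (SE 0.38, adjusted p = 0.000488), and the increase was larger on slide 2 (4.32) than on slide 1 (3.03). Another beta-amylase, GRMZM2G112296, changed by -2.40 (SE 0.22, adjusted p = 0.000329). In starch synthesis, the small subunit of ADP-glucose pyrophosphorylase GRMZM2G106213 had -2.18, -2.22, -2.99 and -3.15 in low T, against -0.16, 0.14, -0.29 and -0.72 in control T, a change of -2.38 (SE 0.28, adjusted p = 0.000819). The other small subunit transcript GRMZM2G068506 changed by -0.14 and was not called. Starch branching enzyme III GRMZM2G005298 and branching enzyme 1 GRMZM2G088753 were higher by 1.49 and 1.03, and GRMZM2G005298 lost its call with normexp background correction.

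Raffinose is built from sucrose and galactinol and is a known cold protectant of leaves. Of 4 probes described as galactinol-sucrose galactosyltransferase 3 were called higher, against 7.48% of all tested probes. Both probes of GRMZM2G077181 are among the 3. The probes were gathered by description, and most descriptions come from lists of transcripts that the study chose on these samples. The count is therefore not independent evidence of a direction. GRMZM2G077181 had 2.27, 2.26, 2.44 and 2.33 in low T, against -1.01, -1.10, -0.94 and -0.70 in control T on 1 of its probes, a change of 3.27 (SE 0.13, adjusted p = 3.27e-05). Its second probe gave a change of 1.51 (SE 0.19, adjusted p = 0.000943), so the size depends on the probe while the direction does not. GRMZM2G340656 changed by 2.66 (SE 0.15, adjusted p = 5.99e-05) and GRMZM2G127147 by -0.91 (adjusted p = 0.111). Proline is made from glutamate by pyrroline-5-carboxylate synthase. GRMZM2G028535 for this enzyme had 2.88, 2.39, 3.17 and 3.74 in low T, against 0.70, 0.16, 1.24 and 1.09 in control T, a change of 2.25 (SE 0.33, adjusted p = 0.00188). GRMZM2G375504 with the same role changed by 2.11 (SE 0.26, adjusted p = 0.000961), while ornithine aminotransferase, the third member of the list, changed by -0.14 and was not called. Both synthases differed in the same direction from their changes under low N and low P.

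**Figure D3:**
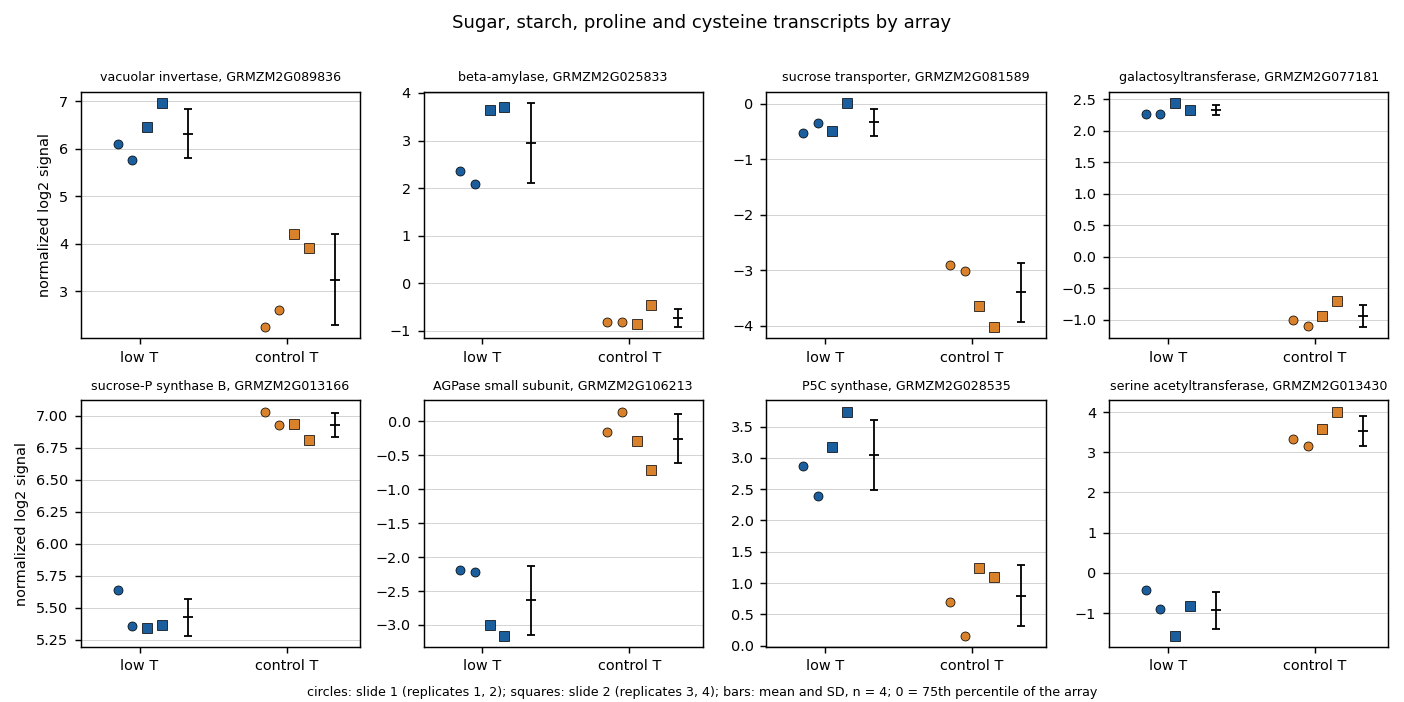
Normalized log2 signal (vertical axes, 0 is the 75th percentile of the array) of 8 transcripts of sugar, starch, proline and cysteine metabolism on each low T (blue) and control T (orange) array, circles for slide 1, squares for slide 2, bars for mean and SD. The groups do not overlap in any panel, with low T above control T for the vacuolar invertase, beta-amylase, sucrose transporter, galactosyltransferase and pyrroline-5-carboxylate (P5C) synthase and below it for the other 3.

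Photosystem transcripts were lower by amounts that mostly stayed within the fold limit. Of 15 transcripts of photosystem I 0 were called higher and 3 lower, against 7.48% and 7.02% of all tested probes. Of 11 transcripts of photosystem II 0 were called. By the p limit alone 7 of photosystem I and 8 of photosystem II were lower, against 16.1% of all tested probes. The medians were -0.62 and -0.56. The 3 calls were chlorophyll binding antenna proteins of photosystem I, GRMZM2G153184 (-1.35, SE 0.16, adjusted p = 0.00089), GRMZM2G160268 (-1.19) and GRMZM2G072280, which lay just past the fold limit. GRMZM2G153184 had 6.78, 6.86, 6.45 and 7.01 in low T, against 8.38, 8.19, 7.95 and 7.99 in control T. With quantile normalization the medians were -0.18 and -0.20, no photosystem I transcript was called and 0 members of photosystem II passed the p limit, and with spike-in scaling the medians were -0.17 and -0.11. The 24 tested transcripts of the Calvin cycle and the 18 of the C4 shuttle, which concentrates CO2 around Rubisco, held 0 calls in either direction, and the sign of their medians of -0.24 each depended on the scaling, with 0.21 each on spike-in probes.

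Nitrate is taken up by transporters and reduced to ammonium, which the glutamine synthetase and glutamate synthase cycle binds to carbon. In nitrate reduction 0 of 6 transcripts were called higher and 2 lower, against 7.48% and 7.02% of all tested probes. The median was -0.85, with -0.25 within slide 1 and -1.61 within slide 2. Both calls were lost with quantile normalization, with either spike-in scaling and with normexp background correction, and the median was -0.46 without control T replicate 4. The difference between low T and low N was more positive for all 6, with a median of 2.31, and the median change under low N was -3.13. Nitrate transporter 1.5-like GRMZM2G044851 had -4.48, -4.54, -5.44 and -5.66 in low T, against -2.40, -2.55, -1.29 and -1.13 in control T. Its change of -3.19 (SE 0.42, adjusted p = 0.0012) was larger on slide 2 than on slide 1, and the difference passed the test. Low T had lower signals of the high affinity nitrate transporter GRMZM2G455124 too (-1.92, SE 0.18, adjusted p = 0.000346), a call lost with normexp background correction. NADH-dependent glutamate synthase GRMZM2G085078 was higher by 1.06 (SE 0.12, adjusted p = 0.000597) and cytosolic glutamine synthetase GRMZM2G024104 by 1.00 (SE 0.15, adjusted p = 0.00208). Of 7 members of the cycle 2 were called higher and 0 lower, against the same shares of all tested probes. The change of GRMZM2G024104 was just past the fold limit and fell under it in 4 of the 8 fits that left out an array.

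Of 117 tested transcripts of the amino acid lists 9 were called higher and 8 lower, against 7.48% higher and 7.02% lower among all tested probes, and 2 of the decreases were over 4 on the log2 scale. Asparagine synthase GRMZM2G078472, which makes the nitrogen-rich transport amide, had -2.06, -2.71, -2.49 and -2.38 in low T, against 4.12, 3.88, 1.38 and 0.65 in control T. The change was -4.92 (SE 0.76, adjusted p = 0.00231), -6.38 within slide 1 and -3.45 within slide 2. Serine O-acetyltransferase GRMZM2G013430, the entry step of cysteine synthesis, had -0.44, -0.90, -1.56 and -0.83 in low T, against 3.32, 3.16, 3.59 and 4.01 in control T, a change of -4.45 (SE 0.27, adjusted p = 7.63e-05). Glutamate decarboxylase GRMZM2G451314, which makes the stress metabolite GABA, is outside these lists and is among the largest described increases. It had 3.89, 3.89, 4.45 and 4.84 in low T against -0.22, -0.18, 0.72 and 1.15 in control T, a change of 3.90 (SE 0.36, adjusted p = 0.000323). Branched chain amino acid transcripts held 0 calls among 14 tested.

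Ribosomal proteins were higher in cold night leaves on both subunits. For the small subunit 35 of 61 transcripts were called higher and 0 lower, with a median of 1.05, and for the large subunit 65 of 106 and 0, with a median of 1.14, against 7.48% of all tested probes. L15 GRMZM2G034794 had 4.60, 5.02, 5.45 and 5.06 in low T, against 3.13, 3.02, 2.06 and 1.99 in control T, and its change of 2.49 (SE 0.31, adjusted p = 0.00105) was the largest of both lists. S15/S22 GRMZM2G083497 had 1.29, 1.71, 1.37 and 1.36 in low T, against -0.66, -0.78, -0.17 and -0.03 in control T, a change of 1.84 (SE 0.20, adjusted p = 0.000602). The medians were 1.22 and 1.36 within slide 1 and 0.89 and 0.97 within slide 2. The change under low T was more positive than under low P for 43 small and 74 large subunit transcripts, and more positive than under low N for 15 and 41. Ribosomal proteins with no subunit in their description changed less. Of these 37 transcripts 6 were called higher and 0 lower, with a median of 0.39. Their change was more positive than under low P for 9 and than under low N for 3.

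Transcripts of cellulose synthesis were higher too. Of 12 cellulose synthases 2 were called higher, against 7.48% of all tested probes. They were CesA5 GRMZM2G111642 (1.48, SE 0.12, adjusted p = 0.000191) and CesA8 GRMZM2G177631 (1.43, SE 0.28, adjusted p = 0.00626). By the p limit alone 7 were higher, against 15.8% of all tested probes, and all 12 changes were above 0. CesA5 had 0.79, 0.78, 0.92 and 0.92 in low T, against -0.50, -0.55, -0.67 and -0.80 in control T. The 18 markers fixed for growing cells, alpha tubulins and cellulose synthases, summed to 170 to 217 in low T and 104 to 129 in control T on the linear scale relative to the 75th percentile, without overlap. All 18 were well above background on all 8 arrays, and 2 were called higher and 0 lower. Their part in the changes of the ribosomal and cell wall lists was not tested. The 7 markers of senescing leaf summed to 34.4 to 45.7 in low T and 23.6 to 29.8 in control T, also without overlap, with 1 called higher and 1 lower. Most of that sum was chloroplastic glutamine synthetase GRMZM2G098290 (31.4 to 42.4 in low T and 16.8 to 25.2 in control T). It passed the p limit but not the fold limit (log2 change 0.71, adjusted p = 0.0128). Of the 7 markers 4 had changes below 0, and the median of the 7 was -0.26, so the sum does not speak for the set. The called decrease was the Myb factor GRMZM2G051256 (log2 change -1.74, SE 0.30, adjusted p = 0.00379). The called increase was the SAG12-like cysteine protease GRMZM2G010435, with -0.29, -0.24, -0.15 and -0.44 in low T against -2.97, -2.62, -3.38 and -4.99 in control T (log2 change 3.21, SE 0.46, adjusted p = 0.00168). Autophagy transcripts held 0 calls among 27.

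Hormone, flowering and clock transcripts were gathered by words in their descriptions. Descriptions were held for 19.7% of the probes called higher and 66.4% of those called lower. Most of them come from lists of transcripts that the study chose on these samples. Among all tested probes 7.48% were called higher and 7.02% lower, while among called probes with a description 453 were higher and 1435 lower. The counts of groups gathered by description are therefore not independent evidence of their direction. Jasmonate is the wound and defence hormone made from lipids by lipoxygenase. Of 19 tested probes with such descriptions 0 were called higher and 16 lower, with a median of -1.81. Jasmonate methyltransferase GRMZM2G136857 had -2.10, -1.76, -1.90 and -1.67 in low T, against 0.74, 0.67, 2.72 and 3.18 in control T, a change of -3.69 (SE 0.57, adjusted p = 0.00234). The JAZ repressor transcript GRMZM2G005954 changed by -2.46 and the chloroplast lipoxygenase GRMZM2G015419 by -1.79. Of 22 tested WRKY transcription factor probes 0 were called higher and 17 lower. The largest WRKY decrease on a transcript detected on all 8 arrays was that of GRMZM2G063880, -2.32 (SE 0.37, adjusted p = 0.00256).

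The phosphatidylethanolamine-binding (PEBP) family includes FT, the leaf signal for flowering, and TFL1, which opposes it. The largest increase among the described transcripts detected on all 8 arrays was in this family. AC197705.4_FG003 had 4.08, 3.89, 5.04 and 5.22 in low T, against -3.37, -3.23, -2.53 and -2.51 in control T. The groups lay apart on every array, and the change was 7.47 (SE 0.36, adjusted p = 4.07e-05), 7.29 within slide 1 and 7.65 within slide 2. Under low N and low P the same transcript changed by 0.96 and -1.62. Of the 6 further members, FT-like or TFL1-like, 5 were called lower, against 7.02% of all tested probes. GRMZM2G108016 changed by -0.76 and was not called. The family was gathered by description, so this count is not independent evidence of a direction. FT-like GRMZM2G158809 had -2.88, -3.72, -3.67 and -3.78 in low T, against -0.55, -0.80, -0.17 and -0.85 in control T, a change of -2.92 (SE 0.24, adjusted p = 0.000233), and TFL1-like GRMZM2G092008 changed by -1.70 (SE 0.38, adjusted p = 0.0109). Most of these 6 had low signals, and FT-like GRMZM2G019993, well above background on 2 of 4 low T arrays, lost its call (-2.93) with normexp background correction.

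**Figure D4:**
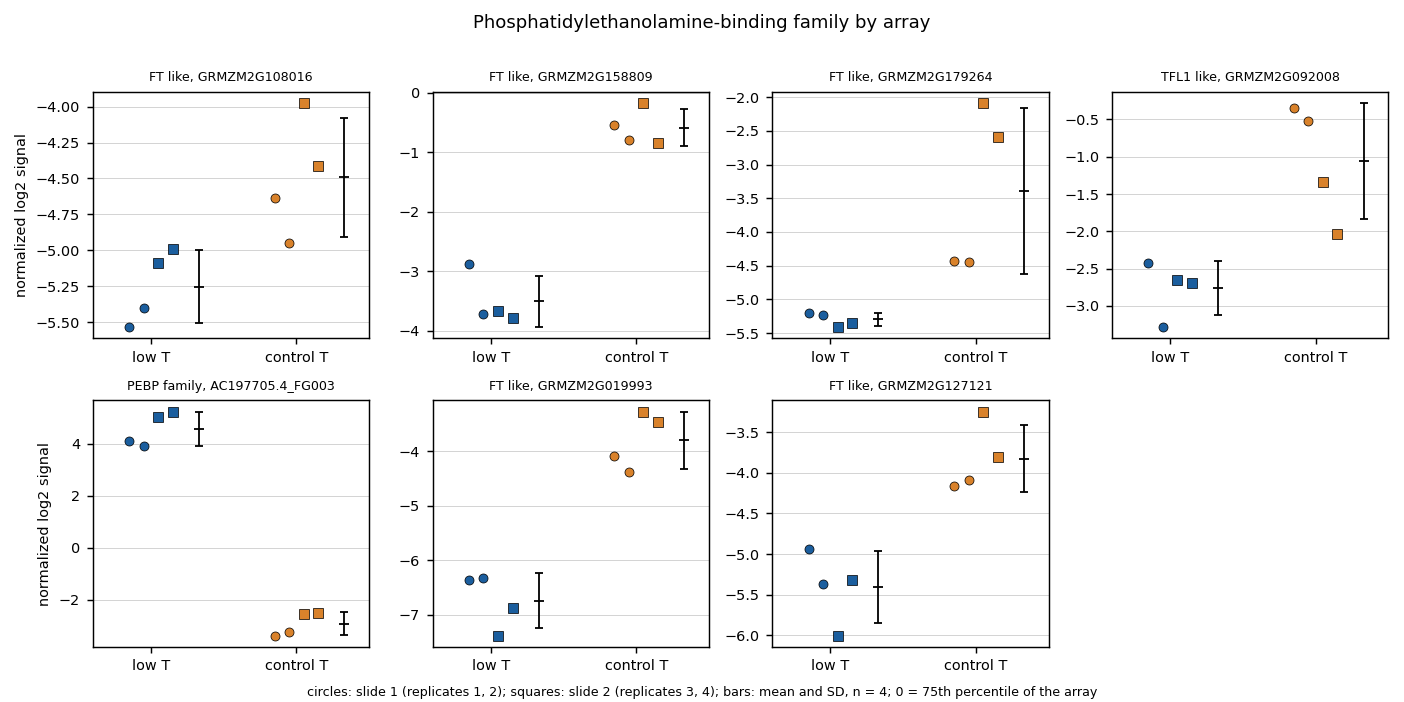
Normalized log2 signal (vertical axes, 0 is the 75th percentile of the array) of the 7 PEBP family transcripts on each low T (blue) and control T (orange) array, circles for slide 1, squares for slide 2, bars for mean and SD. AC197705.4_FG003 lies near 4 to 5 in low T and near -3 in control T, and the other 6 lie lower in low T than in control T.

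Among 7 probes with circadian descriptions 1 was called higher and 3 lower, against 7.48% and 7.02% of all tested probes. This group and those that follow were gathered by description too, so their counts are not independent evidence of a direction. Pseudo-response regulator GRMZM2G179024 had -0.49, -1.28, 0.26 and -0.04 in low T, against 0.73, 0.68, 1.47 and 1.60 in control T, a change of -1.51 (SE 0.36, adjusted p = 0.0155) that was not called with normexp background correction. All leaves came from one window of the day, and a shift in phase and a change in level cannot be told apart. Of 14 probes for trehalose-6-phosphate synthases, which make a signal of sugar status, 5 were called higher and 3 lower, against the same shares. The 3 lower ones were probes of the single locus GRMZM2G112830 (-1.52, -1.45 and -1.40). GRMZM2G014729 was higher by 2.21 (SE 0.24, adjusted p = 0.000617) but dim, and its call was lost with normexp background correction. Among 27 tested wall loosening probes 9 were called higher and 4 lower, against the same shares of all tested probes. The xyloglucan transferase GRMZM2G392125 had 0.91, 1.31, 0.86 and 1.23 in low T, against -2.50, -2.11, -1.85 and -2.02 in control T, a change of 3.20 (SE 0.18, adjusted p = 5.99e-05). The 4 lower calls were beta-expansins, with log2 changes of -1.26 to -1.05. Cold-inducible cationic peroxidase is the description of GRMZM2G070603, which nevertheless was lower, with -1.06, -1.18, -1.56 and -0.95 in low T against 1.55, 1.81, 0.91 and 1.20 in control T (log2 change -2.55, SE 0.22, adjusted p = 0.000261).

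The largest described changes included transcripts of secondary metabolism, defence and sulfur amino acids. GRMZM2G450498, described as a cystathionine lyase or synthase, had 5.57, 4.74, 5.00 and 4.89 in low T, against 0.35, 0.63, -0.87 and -1.64 in control T, a change of 5.43 (SE 0.49, adjusted p = 0.000281). Cinnamate-4-hydroxylase GRMZM2G010468, the second step of the phenylpropanoid pathway, had 3.06, 2.24, 3.07 and 2.98 in low T, against -1.76, -1.52, -1.59 and -2.39 in control T (log2 change 4.65, SE 0.26, adjusted p = 5.99e-05). The 2 beta-glucosidases GRMZM2G017186 and GRMZM2G172043 changed by 4.08 and 4.07, each with SE 0.18, and whether their probes bind each other's transcript was not tested. A gamma subunit of the AMP-activated kinase family, GRMZM2G172214, which belongs to the energy sensing SnRK1 kinases in plants, had 3.92, 3.97, 3.89 and 4.49 in low T, against 0.00, 0.00, -0.12 and 0.57 in control T, a change of 3.95 (SE 0.20, adjusted p = 5.37e-05). A homeobox factor, GRMZM2G117164, had -0.22 and -1.26 in low T on slide 1 and 2.14 and 2.02 on slide 2, against -3.79, -3.91, -2.68 and -3.22 in control T, so its 4.07 was a mean of 3.11 and 5.03.

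On the decreasing side GRMZM2G070837, described as an AMP-binding protein, had -2.23, -5.41, -5.86 and -6.26 in low T, against 4.42, 4.63, 2.25 and 1.26 in control T. The change of -8.08 (SE 1.05, adjusted p = 0.00118) was the largest of the named transcripts in either direction. SCP domains are found in the PR-1 proteins of pathogen response, and 2 defence transcripts with this domain were called lower. GRMZM2G465226 had -2.73, -3.30, -3.71 and -3.72 in low T, against 4.89, 5.59, 1.49 and 1.34 in control T (log2 change -6.69, SE 0.97, adjusted p = 0.00179), and GRMZM2G053493 changed by -6.15 (SE 0.88, adjusted p = 0.00166). In both the control T arrays of slide 1 were far above those of slide 2. Terpene synthases make volatiles that maize releases when attacked. GRMZM2G064406 had -3.45, -3.97, -4.67 and -5.33 in low T, against 1.79, 2.04, 1.48 and 0.73 in control T, a change of -5.87 (SE 0.43, adjusted p = 0.000155), and GRMZM2G046615 changed by -5.66 (SE 0.45, adjusted p = 0.000193). The Myb-like factor GRMZM2G016370 had -0.40, -3.10, -2.66 and -3.54 in low T, against 3.19, 3.04, 2.87 and 2.64 in control T, a change of -5.36 (SE 0.61, adjusted p = 0.000718).

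**Figure D5:**
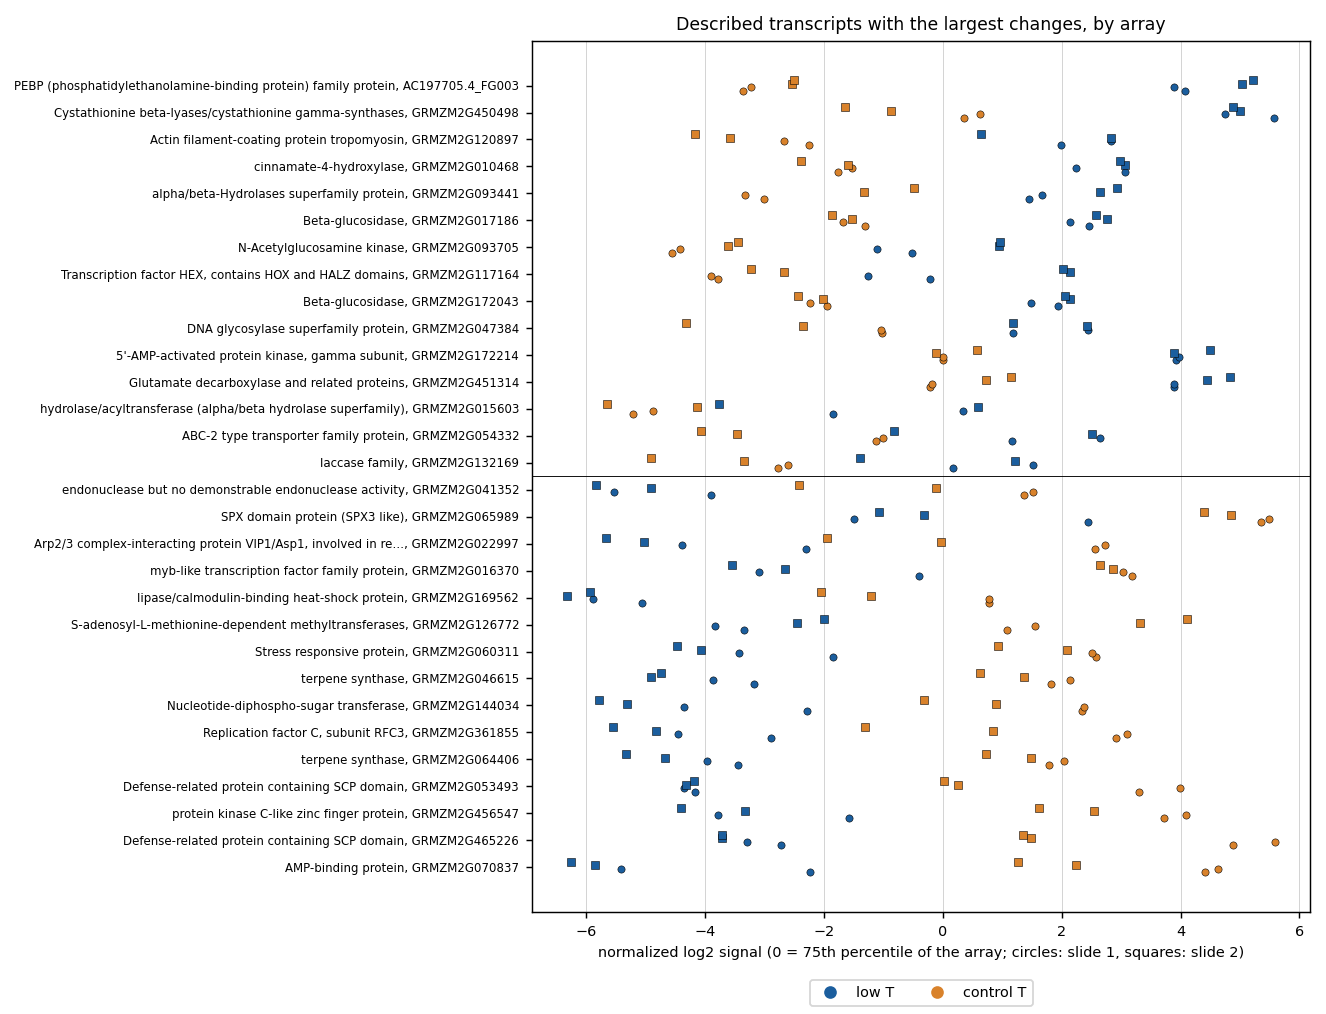
Normalized log2 signal (horizontal axis, 0 is the 75th percentile of the array) on each low T (blue) and control T (orange) array for the 15 described transcripts with the largest increase (above the line) and the 15 with the largest decrease (below it), circles for slide 1 and squares for slide 2. The colours do not overlap within a transcript because only transcripts with the groups apart were chosen. The control T points of many decreasing transcripts, such as GRMZM2G465226 and GRMZM2G053493, fall into separate pairs by slide.

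Some transcripts were detected in 1 group alone. In low T 120 probes, 0.287% of all transcript probes, were well above background on all 4 arrays and on none in control T, and in control T 56 probes, 0.134%, were so against low T. For these a lower bound of the fold is given, set against the detection floor of the dim arrays. They were chosen for this pattern, so p-values of the main fit are not given for the bounds. The median bound was 1.95-fold for the 120 and 2.96-fold for the 56, so most lay close to the background. A membrane protein with a hemolysin III domain, GRMZM2G050591, had -6.84, -6.50, -7.60 and -5.84 in low T, none of them well above background, against 0.71, 0.70, -0.70 and -2.45 in control T. It was at least 64.2-fold lower in low T. An AMP-dependent synthetase, GRMZM2G165844, was at least 18.5-fold lower and a peroxidase, GRMZM2G134947, at least 15.6-fold lower, but with normexp background correction neither was called, with log2 changes of -1.52 (adjusted p = 0.14) and -1.37 (adjusted p = 0.0997). Among described probes in the other direction, the galactosyl transferase AC186147.3_FG008 was at least 11-fold higher. The next largest bound, of the xyloglucan transferase GRMZM2G180870, was 2.30-fold. With normexp background correction neither was called, with log2 changes of 0.91 (adjusted p = 0.427) and 0.01 (adjusted p = 0.994).

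Within slide 1 alone 3601 of the 4463 called probes were called and within slide 2 alone 3045, with 2357 in both, and these counts are no independent check because the 4463 were chosen on the same 8 arrays. The change under low T differed between slides for 242 probes (limma interaction term, adjusted p under 0.05). Among them were 8 of the named transcripts, such as the 2 SCP domain transcripts, GRMZM2G044851 and GRMZM2G136857. Without adjustment 6287 of the 30792 tested probes had p under 0.05 in this term. The signals of both groups together differed between the slides for 6413 probes by adjusted p (limma slide term), 1327 of them by more than 2-fold. The methods state that the plants came from successive sets, but neither they nor the labels give the set of an array, and slide, set and replicate number cannot be told apart.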

How the data were processed

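Each sample was hybridised to 1 one-colour Agilent maize array. The deposited scanner files hold spot intensity values (processed, median and background signals) that Feature Extraction 11.0.1.1 made per the file headers, with no scaling between arrays. The deposited value table holds log2 values of the same arrays that the authors scaled to the 75th percentile and centred on each probe's median over all 24 arrays, which follows from setting it against the scanner values. It served as an alternative, and 0 of its columns belong to other samples.

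The processed intensity was converted to log2 and the 75th percentile of each array over its transcript probes was subtracted, with outlier spots left out and saturated spots kept. The 8 arrays were fitted with limma 3.58.1 (lmFit, eBayes) in R 4.3.3, without a block, and summaries were made in Python 3.11.15 with scipy 1.17.1. Differences from low N and low P were contrasts in 1 fit over 24 arrays. The labels give 4 biological replicates a group, and p-values measure the spread between these samples. Same-numbered low T and control T arrays had correlated deviations (0.223 to 0.447), as did other arrays of the same slide (0.168 to 0.426), so the number marks the slide at least, and all pairs exceeded 0.1. Named transcripts were the 15 described probes with the largest called increase and the 15 with the largest decrease (above background and unsaturated on all 8 arrays, groups apart), the called extremes of each list, all members of the SPX, PHT1, nitrate, glutamate cycle, sucrose, photosystem II and proline lists and of the vacuolar invertases, the cell markers, 5 described one-sided probes per direction and the extremes of keyword groups. Further members named in the text were chosen after their values were seen. Members, lists and keyword groups were chosen with earlier results of these data known. Probes of 3962 loci had a description here, of which 2512 matched the RefSeq gene table. Whether a probe also binds near-identical copies (beta-glucosidases, beta-expansins, nitrate reductases) was not tested. The normexp alternative used the median signal with an offset of 50. A scaling on spike-in probes restricted to well measured ones was chosen after seeing the data. Promoter motifs were not analysed here. The scripts were tested on simulated data. The number of arrays limits the precision.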

Additional observations from a re-analysis of the deposited data

Results flagged for a closer look

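In 13 of 382 groups of 4 arrays of a named probe, 1 array lay far from the other 3 by Dixon's test, which chance alone gives in about 5% of groups. Low T replicate 1 was that array in 6 of them, with normalized log2 signals of 2.78 for SPX1-like GRMZM2G171423, 0.87 for SPX4-like GRMZM2G122108, -0.0479 for PHT1;3-like GRMZM2G139639, 3.84 for ribosomal S18 GRMZM2G130544, and 5.64 and 2.19 for the sucrose phosphate synthases GRMZM2G013166 and GRMZM2G140107. The other low T arrays that stood apart were replicate 2 for cinnamate-4-hydroxylase GRMZM2G010468 (2.24), replicate 3 for the light harvesting protein GRMZM2G057281 (8.62) and replicate 4 for the kinase subunit GRMZM2G172214 (4.49). In control T it was replicate 4 for beta-amylase GRMZM2G025833 (-0.45) and for the cellulose synthases GRMZM2G424832 (0.72) and GRMZM2G112336 (3.13), and replicate 3 for the thaumatin-like GRMZM2G393507 (-3.80).

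The change under low T differed between the slides for 242 probes by the interaction term (limma, adjusted over all tested probes). Without adjustment 6287 probes had p under 0.05 in this term. The change under low T differed from the change under low N for 4006 of 31507 probes and from that under low P for 7693. In the low P experiment the slide and the treatment cannot be told apart, and in the low N experiment they can be only in part.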

How the results depend on the processing

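The main counts were 2302 probes called higher and 2161 lower. They were 5308 and 1018 with spike-in scaling, 3280 and 1362 with the restricted spike-in scaling, 825 and 858 with normexp background correction, 4862 and 4951 without a fold limit, 1167 and 1088 with limma's treat test, 2667 and 1860 with quantile normalization, and 1905 to 2685 and 1796 to 2851 with 1 array left out. The share of calls that were higher was 51.6%, with 58.9% by quantile normalization, 83.9% by spike-in scaling, 70.7% by its restricted form and 44.3% without control T replicate 4. Spike-in scaling moved the median of all probes by 0.447 and its restricted form by 0.219. With the replicate block 2442 were called higher and 2278 lower, and with the slide as a block 2483 and 2387. Neither block ended a call of a named transcript.

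Probes seen in 1 group alone numbered 120 in low T and 56 in control T, or 373 and 133 when 1 array of the dim group could be above background. With 1 array left out they numbered 131 to 293 in low T (293 without control T replicate 3) and 62 to 181 in control T (181 without control T replicate 4, 92 without low T replicate 1). Differences from low N (4006) numbered 1536 with normexp and 7072 without a size limit, and those from low P (7693) 3891 and 12271.

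Of 45 list medians 40 moved by more than the replicate spread with spike-in scaling, 31 with its restricted form, 10 with quantile normalization and 2 with normexp. Among the lists the comparison turns on these were photosystem II (-0.20 quantile, -0.11 spike-in, -0.34 restricted), sucrose synthesis (-0.44, -0.19 and -0.42), SPX and PHO1 proteins (-1.88 normexp), 40S proteins (1.49 spike-in, 1.27 restricted) and 60S proteins (1.59 spike-in). The glucan endo-1,3-beta-glucosidase GRMZM2G001288 turned to -0.0183 with normexp. Of 191 named probes 28 lost their call with normexp, 12 with spike-in scaling, 6 with its restricted form, 4 with quantile normalization and up to 10 with 1 array left out. The 191 include probes not called in the main fit, so the share of calls lost was larger than these counts out of 191. The cause was not tested.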

Other observations

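Of 62 serine proteases 4 were called higher and 12 lower, of 29 cysteine proteases 3 and 5, and of 42 aspartyl proteases 5 and 3, against 7.48% higher and 7.02% lower among all tested probes. The subtilisin-like protease GRMZM2G073223 had 2.04, 1.79, 1.95 and 2.13 in low T, against -0.27, -0.54, -0.54 and -0.45 in control T, a log2 change of 2.43 (SE 0.13, adjusted p = 5.9e-05). Another of the same description, GRMZM2G076417, had 0.64, 0.66, -0.03 and 0.36 in low T, against 3.26, 2.79, 4.33 and 4.00 in control T (log2 change -3.19, SE 0.34, adjusted p = 0.00055). The serine carboxypeptidase GRMZM2G373607 had the largest decrease of these lists, -5.84 (SE 1.46, adjusted p = 0.0173), on groups that overlapped, with 0.53 to -5.58 in low T and 4.68 to -0.10 in control T.

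In glycolysis 1 of 40 transcripts was called higher and 2 lower, against 7.48% and 7.02% of all tested probes. The higher one was pyruvate kinase GRMZM2G124593 (1.50, SE 0.26, adjusted p = 0.00405), which makes pyruvate in the last step, and the lower ones were phosphofructokinases of an upper step, the pyrophosphate dependent GRMZM2G059151 (-1.35) and GRMZM2G004932 (-1.09). In photorespiration, serine hydroxymethyltransferase GRMZM2G078143 was higher by 1.40 (SE 0.15, adjusted p = 0.000501), while catalase GRMZM2G090568, which breaks down hydrogen peroxide, changed by -1.26 (SE 0.18, adjusted p = 0.00165). Among 39 transcripts of aromatic amino acids 2 were called higher and 2 lower, both lower ones tryptophan synthase alpha chains, GRMZM2G046163 (-2.14) and GRMZM2G015892 (-2.09), whose array values ran in parallel.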
